A study of Mus musculus with 34 samples.

Results

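The genes described here make fatty acids, lengthen and desaturate them, and join them to glycerol. They were chosen by name as 34 genes of lipid synthesis, and all 34, called members below, were found among the 54354 entries of the count table. The RNA came from mouse colon tumour organoids, which are 3-dimensional cultures of epithelial cells, and every library carried the genotype given in the labels as AKP. In the first experiment, Degs1 was knocked out by CRISPR delivered as a ribonucleoprotein. Degs1 encodes the dihydroceramide desaturase that forms ceramide. The libraries were 9 of knockout clone1, 9 of knockout clone2 and 3 of a Scrambled control. In the second, 3 libraries labelled shYAP, carrying a hairpin against the transcriptional coactivator YAP, were set against 10 labelled shControl. As labelled, each clone and each control is 1 line, so a clone's own traits and the loss of Degs1 cannot be told apart from these libraries. The labels do not say that replicates were separate cultures, and p-values measure only the spread between libraries, which may be technical.

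Cells build saturated fatty acids from acetyl-CoA, which is carboxylated to malonyl-CoA and joined by fatty acid synthase. The product can be lengthened in the endoplasmic reticulum by a cycle of reactions, given double bonds by desaturases, activated to its CoA ester and esterified to glycerol 3-phosphate on the way to phospholipids and triglycerides. Many of these genes are known targets of the sterol regulatory element-binding proteins (SREBPs), and dividing epithelia use the pathway to supply membrane lipid.

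Total counts ran from 883253 in clone1 replicate 2 to 6597099 in a clone2 library. Levels are given as CPM, counts relative to a library's total after TMM scaling. Changes are log2 fold changes with their standard error from edgeR's quasi-likelihood test, and p-values were adjusted by Benjamini-Hochberg over all genes tested, with a threshold of 0.05. Degs1 fell by 1.86 ± 0.38 on the log2 scale in both clones together (adjusted p = 0.000481), with 7.74 ± 2.62 CPM in Scrambled (SD, n = 3), 2.42 ± 1.32 in clone1 (n = 9) and 1.71 ± 0.893 in clone2 (n = 9). Yap1 RNA was not lower in the libraries labelled shYAP: it was 19.1 ± 1.13 CPM there (n = 3) and 16.6 ± 4.14 in shControl (n = 10), a log2 difference of 0.20 ± 0.23 (adjusted p = 0.619). The mRNA therefore gives no check of that label. Degs1 was higher in shYAP by 1.47 (adjusted p = 0.00205), at 10.07 to 18.25 CPM against 2.631 to 7.934 in shControl. In clone1 alone, Degs1 differed from Scrambled by -1.57 (adjusted p = 0.0117). That call was lost in 3 of 15 other settings, among them without Scrambled replicate 1 (0.0594) or 3 (0.1142). The sum over 6 epithelial markers was between 883 and 1998 CPM in every library, although Cdx2, among them, had only 2 to 77 counts. Col1a2, Col3a1, Cdh5, Kdr, Cd3e, Lep and Plin1 were at 0 counts in all libraries. Other non-epithelial markers had counts, with up to 13 for Pecam1, 38 for Retn and 232 for Cd68. The sum over 5 fibroblast markers reached at most 1.185 CPM and that over 3 endothelial markers at most 3.116, both in shYAP. Within the knockout experiment, clone2 stood lowest for the epithelial sum, at 883 to 1134 CPM against 1357 to 1524 in Scrambled and 1480 to 1998 in clone1. The hairpin groups overlapped clone2, at 973 to 1077 CPM in shYAP and 951 to 1321 in shControl. In bulk RNA, fewer cells of a type and less RNA per cell cannot be told apart.

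Promoter sequences are shown for Acss2, Lpin1, Agpat2 and Elovl5, since Acss2 and Lpin1 had the largest falls in shYAP, and Acss2, Agpat2 and Elovl5 changed the same way in both clones. They come from RefSeq's promoter table (GRCm38.p6), where 28 of the 34 members had an entry. Fads1, Scd1, Scd2, Elovl3, Dgat1 and Dgat2 did not. Each runs 5′ to 3′ on the gene's strand and stops before the gene's annotated start. Acss2 lies at chr2:155517793-155517947 (plus strand), Lpin1 at chr12:16610967-16611216 (minus), Agpat2 at chr2:26604418-26604667 (minus) and Elovl5 at chr9:77917115-77917363 (plus). Capitals mark a match, on either strand, to the sterol regulatory element TCACNCCAC, the CCAAT box CCAAT (read as ATTGG on the other strand), the TEAD element CATTCC or the E-box CACGTG.
Acss2: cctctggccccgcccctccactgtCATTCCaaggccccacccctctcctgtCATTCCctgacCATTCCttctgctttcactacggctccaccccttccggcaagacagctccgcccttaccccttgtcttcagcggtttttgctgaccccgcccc
Lpin1: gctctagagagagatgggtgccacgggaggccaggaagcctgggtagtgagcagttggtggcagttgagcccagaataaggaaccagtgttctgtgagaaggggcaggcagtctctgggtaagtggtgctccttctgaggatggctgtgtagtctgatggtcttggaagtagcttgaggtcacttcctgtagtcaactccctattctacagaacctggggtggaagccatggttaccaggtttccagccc
Agpat2: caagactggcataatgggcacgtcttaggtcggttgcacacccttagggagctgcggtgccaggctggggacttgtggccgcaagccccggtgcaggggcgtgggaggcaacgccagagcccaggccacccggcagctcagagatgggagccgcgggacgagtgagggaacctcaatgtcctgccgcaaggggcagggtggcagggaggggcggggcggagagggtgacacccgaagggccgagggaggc
Elovl5: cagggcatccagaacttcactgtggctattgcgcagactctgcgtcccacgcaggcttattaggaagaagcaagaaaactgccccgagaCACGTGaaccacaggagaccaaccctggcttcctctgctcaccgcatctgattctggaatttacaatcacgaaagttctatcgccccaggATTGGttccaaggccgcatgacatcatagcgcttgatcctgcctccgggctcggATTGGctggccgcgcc

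The Acss2 stretch holds 3 copies of CATTCC, which begin 226, 199 and 188 bases before RefSeq's start. A CCAAT box on the other strand, 73 to 69 bases before that start, lies past the printed Acss2 stretch. Over the 250 bases before each start, CATTCC was in 12.6% of 32851 promoter entries and in 5 of the members' 34 entries, since some genes have several (Acsl1, Acss2, Gpam, Me1 and Mid1ip1). TCACNCCAC was in 1.05% of all entries and in 1 of 34 (Acsl1). CCAAT was in 33.8% and in 17 of 34, CACGTG in 6.02% and in 2 of 34 (Elovl5 and Hacd3), and the GC box GGGCGG, not capitalised above, in 32.7% and in 22 of 34. The motifs and the promoters printed were chosen after the members' values were seen. A match describes the letters and shows no bound factor, and the Lpin1 and Agpat2 windows held none of the 4 capitalised motifs.

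Per kilobase of annotated exon, the members' levels spanned a wide range that was much alike in the 5 groups. Tecr, which closes the elongation cycle, was highest in each group, at 275 ± 20.03 CPM per kilobase in Scrambled (SD, n = 3). Scd2, a stearoyl-CoA desaturase, was second there at 132 ± 2.92. Fasn, fatty acid synthase itself, stood at 3.06 ± 0.557 and ranked 21 in Scrambled, both clones and shControl and 19 in shYAP. Acacb, Thrsp, Elovl3 and Elovl4 were too low to test, which left 30 members. Acacb, the mitochondrial acetyl-CoA carboxylase, had counts in all 9 clone2 libraries (81 in total), in 2 of 9 clone1 libraries (5 counts), in 2 of 3 Scrambled libraries (9 counts), in 6 of 10 shControl libraries (20 counts) and in none of 3 shYAP libraries. Thrsp, Elovl3 and Elovl4 had at most 4 counts in any group.

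In both Degs1 knockout clones, given equal weight in 1 contrast, 4 of the 30 tested members were higher than Scrambled and 2 were lower. Among all 11514 genes tested, 17.6% were called, 8.39% higher and 9.21% lower. Acss2, Me1, Hacd1 and Agpat2 rose, and Elovl5 and Fads1 fell. The members' median log2 fold change was -0.058, beside -0.0020 for all genes. Against Scrambled, clone1 alone had 4 members higher and 3 lower, where 12.7% of all genes were called, 5.96% higher and 6.71% lower. Clone2 had 6 higher and 5 lower, where 33.1% of all genes were called, 16.5% higher and 16.6% lower. Acss2 and Agpat2 rose in both clones, Elovl5 and Fads1 fell in both, and Fads3 and Acsl5 changed in opposite directions. Acsl4 passed the threshold in clone1 and not in clone2, Me1, Hacd1, Scd1, Lpin1 and Fads2 in clone2 and not in clone1, and 18 members in neither. The direct comparison of the clones called 7 members higher and 7 lower in clone2, where 49.1% of all genes were called, 23.6% higher and 25.5% lower. As shares of the 30 members, the calls were 20% in both clones together, 23.3% in clone1, 36.7% in clone2 and 46.7% between the clones. Except in clone1, these are near the shares of all genes, so the counts alone are no result about these genes. The clone contrasts share the Scrambled libraries, so a low or high control value enters both.

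**Figure D1:**
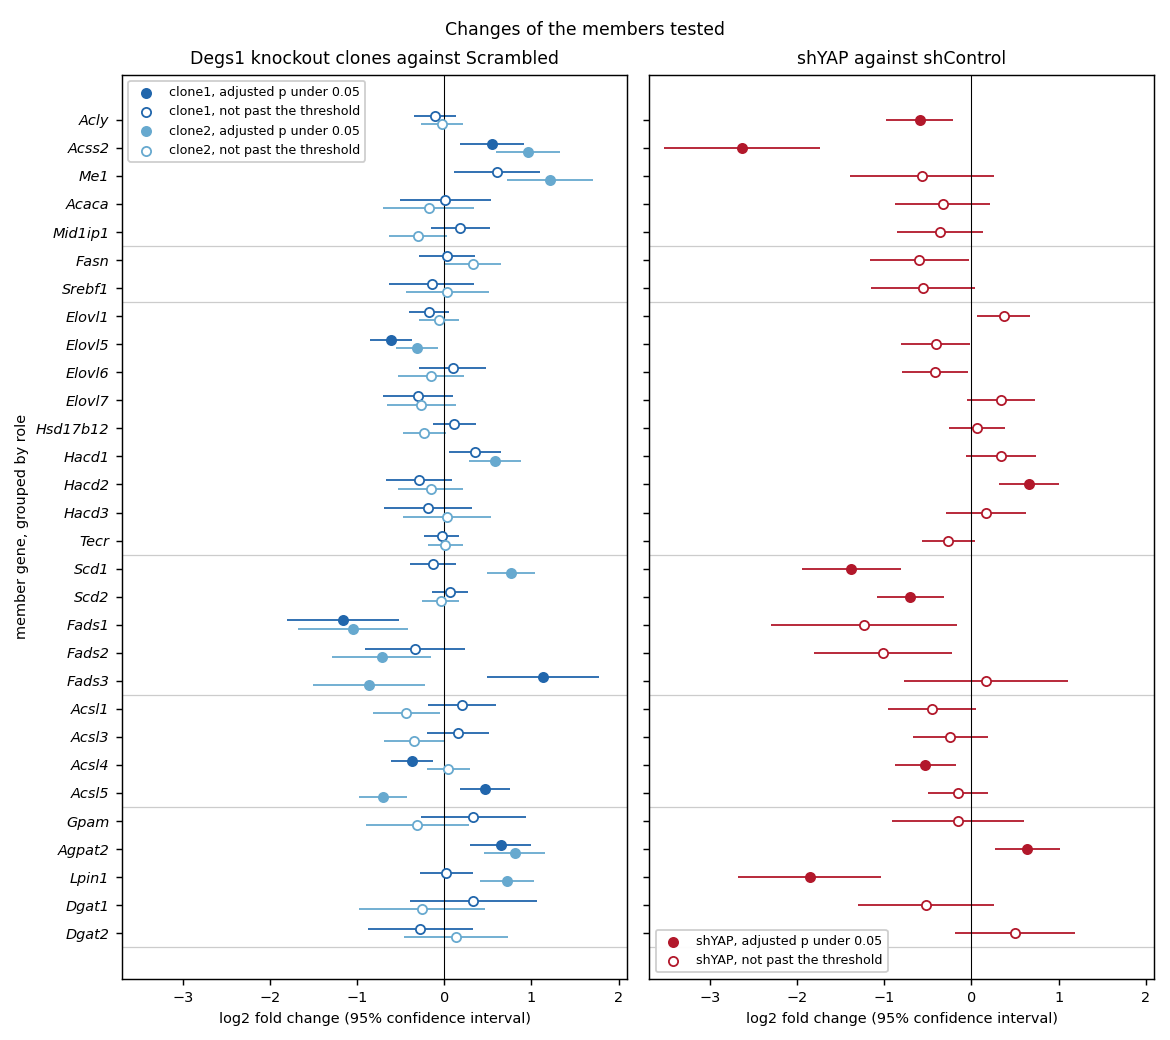
Log2 fold change with its 95% confidence interval (x axis) for each of the 30 members tested (y axis, grouped by role), for clone1 and clone2 against Scrambled (left) and shYAP against shControl (right). Filled points have an adjusted p under 0.05. Fads3 and Acsl5 are filled on opposite sides of 0 in the clones, and Acss2 lies farthest to the left in shYAP at -2.63.

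Acetyl-CoA and malonyl-CoA supply had 2 of 5 tested members higher in the clones together and none lower, in a contrast that called 17.6% of all genes. Acss2, which makes acetyl-CoA from acetate in the cytosol and nucleus, was at 24.99, 23.4 and 21.5 CPM in the Scrambled libraries, at 24.9 to 53.2 in clone1 (median 29.7) and at 39.0 to 55.2 in clone2 (median 43.1). All 9 clone2 libraries lay above the Scrambled ones, and clone1 touched their upper end. Acss2 rose by 0.75 ± 0.17 in both clones (adjusted p = 0.00164), 0.55 ± 0.18 in clone1 (0.0397) and 0.96 ± 0.18 in clone2 (7.91e-05). The clone1 call was lost when Scrambled replicate 1 (0.59, adjusted p = 0.0947), 2 (0.56, 0.130) or 3 (0.49, 0.168) was left out. With knockout replicates 7 to 9 alone, where clone1 was at 24.9 to 29.7 CPM, the clone1 difference was 0.23 (adjusted p = 0.384). In replicates 1 to 6 it was at 27.7 to 53.2 CPM. Against shControl, which spread from 16.2 to 53.1 CPM, Acss2 differed by 0.24 in both clones together (adjusted p = 0.324), 0.03 in clone1 (0.942) and 0.46 in clone2 (0.0564). Me1, the malic enzyme that supplies NADPH for synthesis, was at 15.5 to 18.9 CPM in Scrambled, 12.97 to 39.5 in clone1 and 27.6 to 52.6 in clone2. It rose in clone2 by 1.21 ± 0.24 (adjusted p = 0.000231), and clone2 was above every Scrambled library. In clone1 the difference was 0.61 ± 0.24 (adjusted p = 0.0989). Against shControl, the clones together differed in Me1 by 0.10 (adjusted p = 0.788).

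Acly, which makes acetyl-CoA from citrate, and Acaca, the cytosolic acetyl-CoA carboxylase, did not pass the threshold in any comparison of the clones. Their log2 differences from Scrambled lay between -0.18 and 0.01. Mid1ip1, which promotes the polymerisation of acetyl-CoA carboxylase, was at 19.2, 22.6 and 20.7 CPM in Scrambled, 17.9 to 27.6 in clone1 (median 24.7) and 13.9 to 20.9 in clone2 (median 17.3). Clone2 was lower than clone1 by -0.48 ± 0.12 log2 (adjusted p = 0.00113), although the groups overlapped. With knockout replicates 7 to 9 alone, the Mid1ip1 adjusted p was 0.0789.

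Fasn and Srebf1, the gene of SREBP-1, were not called in either clone against Scrambled. Fasn was at 26.5 to 37.6 CPM in Scrambled, 25.7 to 46.5 in clone1 and 34.3 to 50.8 in clone2. The 3 groups overlapped. Its log2 difference was 0.03 (95% confidence interval -0.29 to 0.36) in clone1 and 0.33 (0.0008 to 0.65, adjusted p = 0.117) in clone2, while clone2 exceeded clone1 by 0.29 ± 0.11 (adjusted p = 0.0299). That call was lost with knockout replicates 1 to 6 alone and with 7 to 9 alone. Srebf1 differed by -0.15 ± 0.24 in clone1 and 0.03 ± 0.24 in clone2.

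The elongation cycle had 1 of 9 tested members higher in both clones together, Hacd1, and 1 lower, Elovl5, beside 17.6% of all genes. Elovl5, the elongase of polyunsaturated chains, was at 109, 109 and 118 CPM in Scrambled, at 50.9 to 83.6 in clone1 (median 71.9) and at 82.8 to 107 in clone2 (median 87.0). Every library of either clone was below the lowest Scrambled library, and in clone2 replicates 1 and 2, at 107 and 107, came within a few CPM of it. Against shControl the clones together differed by -0.20 (adjusted p = 0.125). Elovl5 fell by 0.61 ± 0.12 on the log2 scale in clone1 (adjusted p = 0.000383) and by 0.31 ± 0.12 in clone2 (0.0412). Its adjusted p in clone2 ranged from 0.00226 to 0.841 over 15 other settings, 11 of which lost the call, and it was -0.34 (0.0798), -0.32 (0.0936) and -0.28 (0.155) without Scrambled replicate 1, 2 and 3. Hacd1, a dehydratase of the cycle, was at 22.4 to 25.1 CPM in Scrambled, 24.4 to 37.1 in clone1 and 28.2 to 39.3 in clone2. Its rise was 0.58 ± 0.15 in clone2 (adjusted p = 0.00219), where it kept its call under each of 15 other settings, and the clone1 difference was 0.35 ± 0.15 (0.118). The Hacd1 call for both clones together was lost in 6 of 14 other settings, among them without Scrambled replicate 1 (0.45, 0.0805) or 3 (0.42, 0.104) and against shControl (0.18, 0.202).

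Hsd17b12, the ketoacyl reductase of the cycle, was at 162, 127 and 148 CPM in Scrambled, 119 to 210 in clone1 (median 156) and 111 to 144 in clone2 (median 126). The clones overlapped, and clone2 was lower by -0.34 ± 0.09 log2 (adjusted p = 0.00109). With knockout replicates 1 to 6 alone, the Hsd17b12 adjusted p was 0.0972. Elovl1, Elovl6, Elovl7, Hacd2, Hacd3 and Tecr were past the threshold in none of the clone comparisons. Their log2 differences from Scrambled lay between -0.30 and 0.09 over both clones.

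Among the desaturases, 2 of 5 differed between the clones, 1 higher and 1 lower in clone2, beside 49.1% of all genes. Scd1, which places the first double bond in stearoyl-CoA and palmitoyl-CoA, was at 93.9, 84.9 and 87.4 CPM in Scrambled, 58.7 to 96.8 in clone1 (median 82.9) and 114 to 175 in clone2 (median 157). All clone2 libraries were above all others of the knockout experiment. Scd1 rose by 0.77 ± 0.14 in clone2 (adjusted p = 2.55e-05), differed by -0.13 ± 0.13 in clone1 (0.576), and was 0.90 ± 0.09 higher in clone2 than in clone1 (2.98e-10). Both calls held under each other setting tried. Scd2, on chromosome 19 like Scd1 and expressed more highly per kilobase, was flat, at 0.07 ± 0.10 in clone1 and -0.04 ± 0.10 in clone2. Scd1 and Scd2 are close in sequence, so reads shared between them may be divided by the counting.

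Fads1, Fads2 and Fads3 lie side by side on chromosome 19. Fads1, the delta-5 desaturase of polyunsaturated chains, was at 11.8, 13.3 and 10.8 CPM in Scrambled, 3.14 to 8.15 in clone1 (median 5.15) and 1.51 to 10.4 in clone2 (median 5.27). No library of either clone reached the Scrambled range. Fads1 fell by 1.16 ± 0.32 on the log2 scale in clone1 (adjusted p = 0.0110) and by 1.05 ± 0.31 in clone2 (0.00817). Without Scrambled replicate 2 both Fads1 calls were lost, at -1.07 (adjusted p = 0.0863) in clone1 and -0.96 (0.0573) in clone2. Against shControl the values were -0.70 and -0.56, also not past the threshold. The largest adjusted p over the 15 other settings was 0.171 in clone1 and 0.160 in clone2. Levels also differed within clone2: replicates 7 to 9 were at 5.27 to 10.4 CPM and replicates 3 to 6 at 1.51 to 5.93. The labels do not mark these as separate sets. In clone2 the call was lost with replicates 7 to 9 alone (-0.51, adjusted p = 0.160). Fads2, the delta-6 desaturase, was at 8.82 to 14.8 CPM in Scrambled, 6.31 to 13.6 in clone1 and 3.34 to 10.5 in clone2. It fell by 0.72 ± 0.28 in clone2 (adjusted p = 0.0444), a call that 11 of 15 other settings lost. It was -0.80 (0.0691) without Scrambled replicate 1 and -0.47 (0.323) without replicate 3.

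Fads3, a desaturase active on sphingoid bases, was at 5.32, 3.25 and 6.30 CPM in Scrambled, 7.58 to 14.6 in clone1 (median 10.3) and 1.16 to 4.53 in clone2 (median 2.55). The clones did not overlap, with all 9 clone1 libraries above Scrambled and clone2 reaching into its range. Fads3 rose by 1.13 ± 0.32 in clone1 (adjusted p = 0.0130) and fell by 0.86 ± 0.32 on the log2 scale in clone2 (0.0330). Clone2 was below clone1 by -1.99 ± 0.23 (3.22e-09), a call kept in 11 of 11 other settings. The Fads3 call against Scrambled was lost in clone1 without Scrambled replicate 1 (1.19, adjusted p = 0.0507) or 2 (0.89, 0.147), and in clone2 without replicate 1 (-0.81, 0.109) or 3 (-0.65, 0.217).

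**Figure D2:**
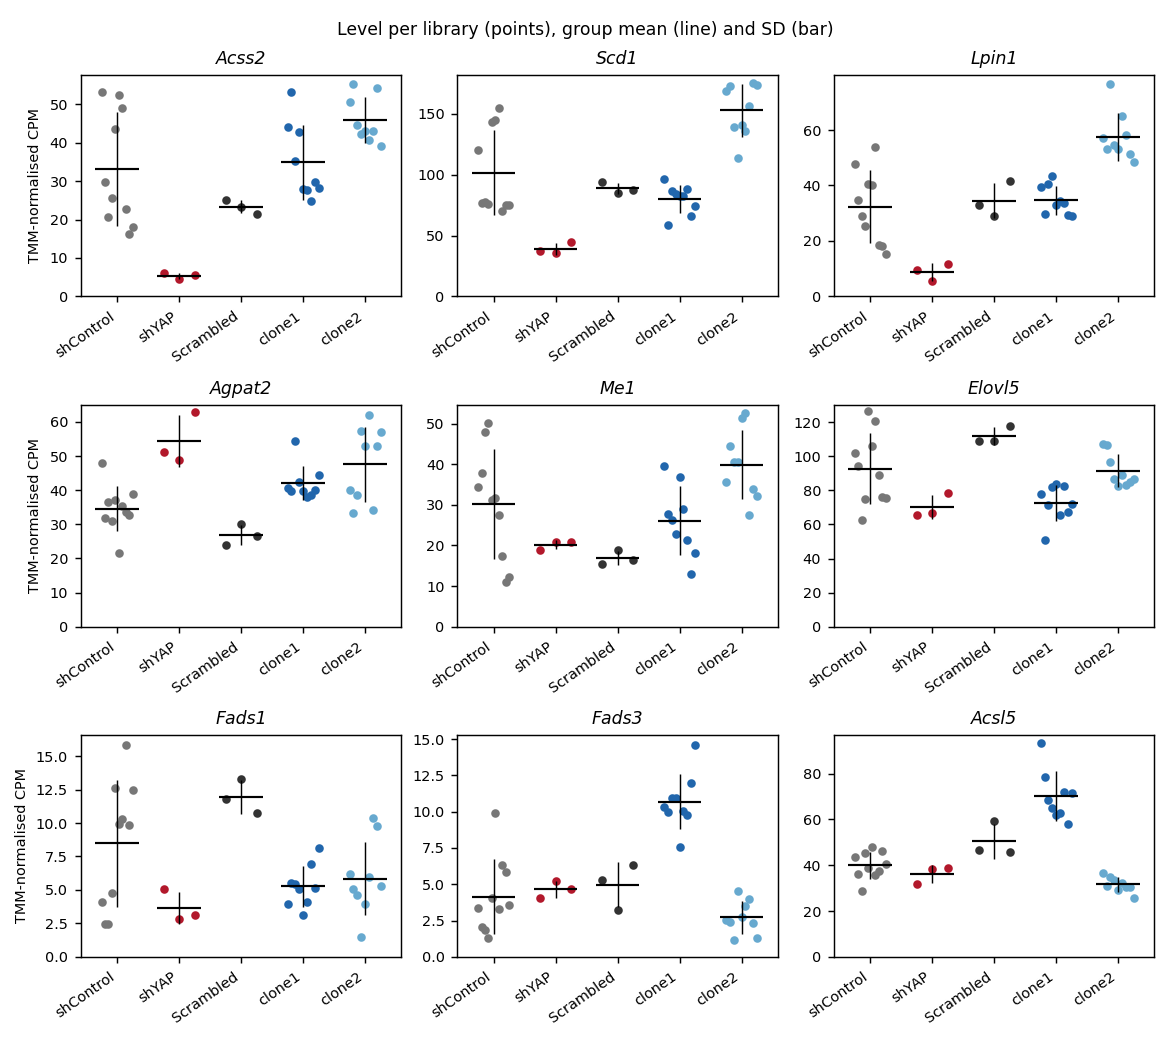
TMM-normalised CPM (y axis, from 0) of 9 members in each of the 34 libraries (points) by group (x axis), with the group mean as a line and the SD as a bar. Scd1 and Lpin1 in clone2 lie above clone1 and Scrambled, Fads3 and Acsl5 separate the clones, and Acss2 in shYAP lies between 4.50 and 5.99 CPM.

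Acyl-CoA synthetases activate long-chain fatty acids, and all 4 tested members differed between the clones, 1 higher and 3 lower in clone2, where 49.1% of all genes differed. Acsl5 was at 46.5, 59.2 and 45.7 CPM in Scrambled, 57.9 to 93.5 in clone1 (median 68.7) and 25.8 to 36.5 in clone2 (median 31.1). Clone2 lay below every other library of the experiment, and clone1 overlapped Scrambled at 1 library, replicate 2 of the control. Acsl5 rose by 0.47 ± 0.14 in clone1 (adjusted p = 0.0224), fell by 0.70 ± 0.14 on the log2 scale in clone2 (0.000106) and differed between the clones by -1.17 ± 0.10 (3.84e-12). Without Scrambled replicate 1 or 3 the clone1 call was lost (0.41, adjusted p = 0.150, and 0.40, 0.149).

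Acsl1 was at 21.3, 17.9 and 23.4 CPM in Scrambled, 19.6 to 29.9 in clone1 (median 24.8) and 8.56 to 19.03 in clone2 (median 17.7), and the clones did not overlap. Clone2 was lower than clone1 by -0.64 ± 0.14 log2 (adjusted p = 0.000232). Acsl3 was at 41.0, 40.4 and 40.0 CPM in Scrambled, 37.0 to 74.2 in clone1 (median 42.7) and 22.7 to 41.3 in clone2 (median 33.4), with overlap between all groups. The Acsl3 difference between the clones was -0.51 ± 0.13 (adjusted p = 0.00104) over all libraries and 0.00 with replicates 7 to 9 alone (adjusted p = 0.983). In replicates 7 to 9 the clones spanned 37.0 to 41.8 and 35.4 to 41.3 CPM. Acsl4, which prefers arachidonic acid, was at 67.6, 58.5 and 66.4 CPM in Scrambled, 41.3 to 58.7 in clone1 (median 50.8) and 59.6 to 74.2 in clone2 (median 66.97). Clone1 lay below clone2 throughout, by 0.41 ± 0.09 log2 (adjusted p = 0.000153). Acsl4 fell by 0.37 ± 0.12 in clone1 against Scrambled (adjusted p = 0.0342), a call lost in 9 of 15 other settings. It was -0.34 (0.162), -0.43 (0.0619) and -0.35 (0.135) without Scrambled replicate 1, 2 and 3.

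Glycerolipid assembly had 1 of 5 tested members higher in both clones together and none lower, beside 17.6% of all genes. Agpat2, which adds the second acyl chain to form phosphatidic acid, was at 24.1, 30.0 and 26.4 CPM in Scrambled, 38.0 to 54.4 in clone1 (median 40.0) and 33.3 to 62.0 in clone2 (median 52.9). All 18 knockout libraries were above all 3 Scrambled libraries. Agpat2 rose by 0.73 ± 0.16 in both clones together (adjusted p = 0.00140), by 0.65 ± 0.17 in clone1 (0.00936) and by 0.81 ± 0.17 in clone2 (0.000358). For both clones together the call held in 14 of 14 other settings, with values of 0.36 to 0.83. In clone1 it was lost without Scrambled replicate 1 (0.57, adjusted p = 0.0837) and against shControl (0.26, 0.142), and also in 2 other settings.

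Lpin1, the phosphatidate phosphatase that forms diacylglycerol, was at 32.9, 29.1 and 41.5 CPM in Scrambled, 28.9 to 43.6 in clone1 (median 33.6) and 48.4 to 76.5 in clone2 (median 54.5). Clone2 lay above all other libraries of the experiment, and clone1 and Scrambled covered nearly the same range. Lpin1 rose by 0.72 ± 0.15 in clone2 (adjusted p = 0.000327), by 0.70 ± 0.11 against clone1 (1.10e-06), and differed by 0.02 ± 0.15 in clone1 against Scrambled (0.947). Gpam, the mitochondrial enzyme that adds the first acyl chain, was at 7.2, 7.1 and 6.5 CPM in Scrambled, 4.68 to 13.1 in clone1 (median 8.86) and 3.01 to 8.49 in clone2 (median 5.47). The groups overlapped, and clone2 was below clone1 by -0.64 ± 0.21 (adjusted p = 0.0118). With replicates 7 to 9 alone the Gpam difference was -0.21 (adjusted p = 0.589). Dgat1 and Dgat2, which finish triglycerides, were past the threshold in no comparison of the main fits. Their intervals were wide: -0.40 to 1.06 for Dgat1 and -0.88 to 0.32 for Dgat2 in clone1.

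In the libraries labelled shYAP, 6 of the 30 tested members were lower than in shControl and 2 were higher, where 11.4% of all 11094 genes tested were called, 5.9% lower and 5.47% higher. The calls were 26.7% of the members. Acly, Acss2, Scd1, Scd2, Acsl4 and Lpin1 fell, and Hacd2 and Agpat2 rose. The members' median log2 fold change was -0.39, beside -0.052 for all genes, and 9 of the 30 values were above 0. By role, 2 of 5 tested genes of acetyl-CoA and malonyl-CoA supply, 2 of 5 desaturases, 1 of 4 acyl-CoA synthetases and 1 of 5 glycerolipid genes were lower. With so few genes per role, these counts are not set apart from the 11.4% of all genes. In the elongation cycle, 1 of 9 was higher and none was lower.

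Acss2 was at 5.99, 4.50 and 5.52 CPM in shYAP and at 16.2 to 53.1 in shControl (median 27.7). No shYAP library came near the lowest control. Acss2 fell by 2.63 ± 0.42 on the log2 scale (adjusted p = 0.000714), and the call held in 12 of 12 other settings, with values of -2.71 to -1.83. Acly was at 69.5, 63.7 and 79.3 CPM in shYAP and 69.3 to 129 in shControl, with overlap, and fell by 0.59 ± 0.19 (adjusted p = 0.0418). Leaving out shYAP replicate 1, 2 or 3 lost the Acly call (-0.57, -0.52 and -0.70, with adjusted p = 0.155, 0.206 and 0.0817).

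Scd1 was at 37.6, 35.3 and 44.4 CPM in shYAP and 70.5 to 155 in shControl (median 77.2), without overlap. It fell by 1.38 ± 0.27 on the log2 scale (adjusted p = 0.00272), and its call held in 12 of 12 other settings. Scd2 was at 421, 382 and 435 CPM in shYAP and 522 to 917 in shControl (median 567), also without overlap. Scd2 fell by 0.70 ± 0.19 (adjusted p = 0.0176), a call lost without shYAP replicate 1, 2 or 3 (-0.71, -0.64 and -0.76, with adjusted p = 0.0791, 0.117 and 0.0610). Lpin1 was at 9.59, 5.45 and 11.7 CPM in shYAP and 15.5 to 54.0 in shControl (median 31.9), again without overlap. Lpin1 fell by 1.86 ± 0.39 (adjusted p = 0.00564), and without shYAP replicate 2, the lowest library, by 1.60 (0.0567).

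Hacd2, a second dehydratase of elongation, was at 62.6, 59.7 and 42.0 CPM in shYAP and 25.5 to 40.3 in shControl (median 34.4). All 3 shYAP libraries were above the controls, the third by little. Hacd2 rose by 0.66 ± 0.17 (adjusted p = 0.0127), a call lost without shYAP replicate 1 (0.56, 0.106) or 2 (0.60, 0.101). Agpat2, which also rose in the clones, was at 51.3, 48.8 and 63.0 CPM in shYAP and 21.6 to 47.9 in shControl (median 34.5), without overlap. It rose by 0.64 ± 0.18 (adjusted p = 0.0223), and leaving out shYAP replicate 1, 2 or 3 lost the call (0.69, 0.72 and 0.50, with adjusted p = 0.0690, 0.0612 and 0.185). Acsl4 was at 45.3, 36.5 and 32.5 CPM in shYAP and 44.7 to 67.1 in shControl, overlapping at 1 shYAP library. It fell by 0.53 ± 0.17 (adjusted p = 0.0441), and this call too was lost without shYAP replicate 1, 2 or 3 (-0.67, -0.50 and -0.45, with adjusted p = 0.0614, 0.188 and 0.209).

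Several members with large values did not pass the threshold in shYAP. Fads1 differed by -1.23 ± 0.51 (adjusted p = 0.120) and Fads2 by -1.01 ± 0.38 (0.0864). Fasn differed by -0.60 ± 0.27 (adjusted p = 0.161) and Srebf1 by -0.56 ± 0.29 (0.222). The first 3 of these were called lower with shControl replicates 5 to 10 as the only controls: Fads1 at -1.70 (adjusted p = 0.000847), Fads2 at -1.23 (0.0129) and Fasn at -0.82 (0.00393). With replicates 8 to 10 alone they were at -1.80 (5.87e-05), -1.43 (0.000210) and -0.79 (0.000576). Elovl1, at 183 to 200 CPM in shYAP and 112 to 178 in shControl, lay above every control library with a difference of 0.37 ± 0.15 (adjusted p = 0.108).

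The 10 shControl libraries were not uniform for these genes. Library numbers in the labels break after replicate 4, and earlier results of these data divided the rest into replicates 5 to 7 and 8 to 10. Acss2 was at 20.7 to 53.1 CPM in replicates 1 to 4, 43.6 to 52.5 in replicates 5 to 7 and 16.2 to 22.6 in replicates 8 to 10. Fads1 was at 2.43 to 4.75 CPM in the first set, which overlaps shYAP at 2.84 to 5.03, and at 9.88 to 15.9 in replicates 5 to 10. Me1 was at 34.5 to 50.1 in the first set and 11.1 to 17.5 in the last, while shYAP was at 18.9 to 20.9. Me1 in shYAP was thus below the first set and above the last. With replicates 8 to 10 as the only controls, 10 members were lower in shYAP and Hacd1, Hacd2 and Agpat2 were higher. Of all genes tested, 21.9% were called in either direction. The members' median log2 fold change was then -0.23, beside -0.0091 for all genes. Acss2, Scd1 and Lpin1 remained lower, but replicates 8 to 10 were also the lowest set for Scd1 (70.5 to 75.3 CPM) and Lpin1 (15.5 to 18.7). Over the 12 other settings, the smallest fall was -1.83 for Acss2, -0.92 for Scd1 and -0.97 for Lpin1. The part of the runs in these differences was not tested beyond those settings.

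**Figure D3:**
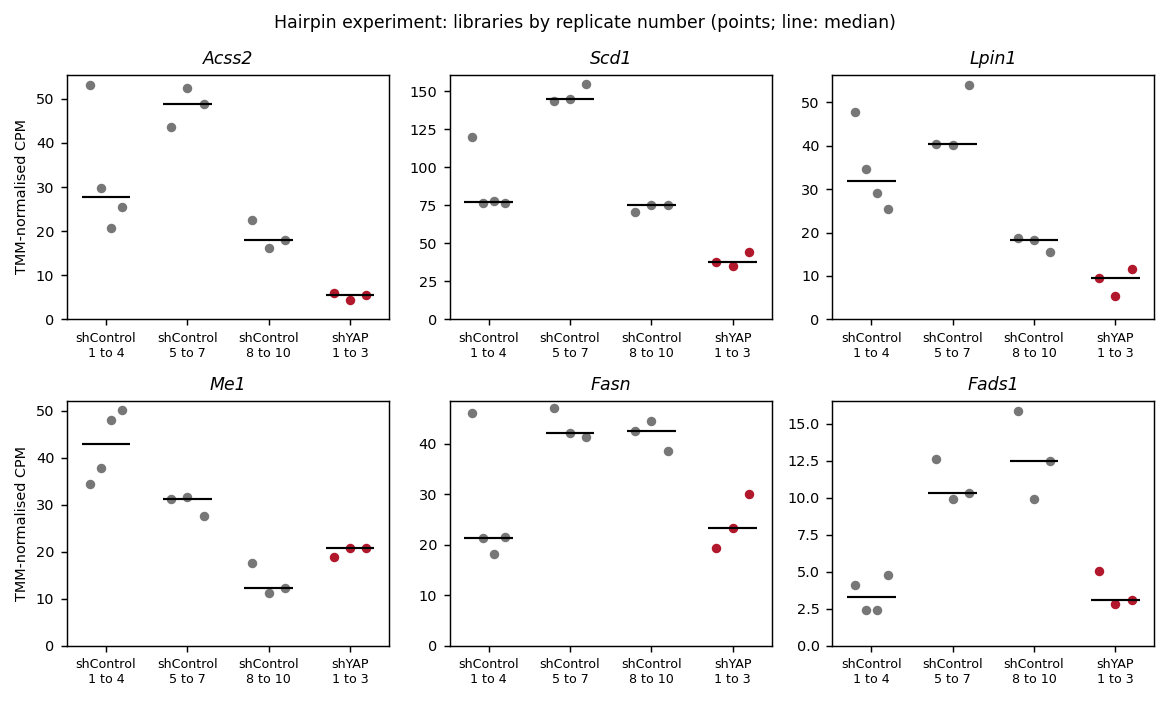
TMM-normalised CPM (y axis, from 0) of 6 members in the shControl libraries, divided by replicate number, and in the 3 shYAP libraries (x axis). Points are libraries and lines medians, and the 6 genes were picked after their values were seen. Acss2, Scd1 and Lpin1 in shYAP lie below each set of controls, Me1 lies between the sets, and Fasn and Fads1 overlap the first set.

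As a summary over the genes, each library was given the mean, over the 31 members with at least 1 count in 5 libraries, of log2 CPM minus that gene's mean over all libraries. This score was -0.38 to -0.32 in shYAP (median -0.35) and -0.34 to 0.21 in shControl (median -0.021). The ranges met at their ends: the lowest shControl library was within the shYAP range. The lowest library of the knockout experiment, at -0.18, was clone1 replicate 2, the shallowest. The medians of Scrambled, clone1 and clone2 were 0.047, 0.049 and 0.062. The score is a description without a test, and near-equal medians in the clones hide members that moved in opposite directions.

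**Figure D4:**
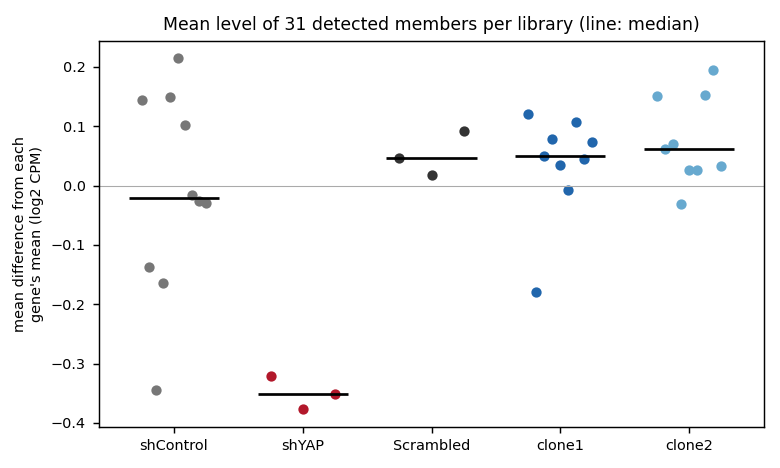
Mean difference from each gene's own mean (y axis, log2 CPM) over 31 detected members, for each library (points) by group (x axis), with the group median as a line. The shYAP libraries lie between -0.38 and -0.32, and the libraries of the knockout experiment between -0.18 (clone1 replicate 2) and 0.1953 (clone2 replicate 8).

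The knockout effect and the shYAP effect were set against each other in a fit of all 34 libraries. For 5 of the 30 members the knockout effect was the higher and for 2 the lower, where 18.8% of all 11960 genes were called, 9.84% higher and 9% lower. The difference was 3.39 ± 0.43 for Acss2 (adjusted p = 4.01e-07), 2.23 ± 0.37 for Lpin1 (4.03e-05), 1.70 ± 0.28 for Scd1 (2.70e-05), 1.48 ± 0.46 for Me1 (0.0225) and 0.71 ± 0.20 for Scd2 (0.00757). Hacd2 differed by -0.88 ± 0.24 (adjusted p = 0.00839) and Elovl1 by -0.49 ± 0.17 (0.0390). The Acss2, Lpin1, Scd1 and Scd2 calls held in 10 of 10 other settings, and the Me1 and Elovl1 calls were lost in 6 and 7 of 10. None of these settings limited shControl to part of its replicates, so the differences within shControl were not tested for this contrast. Me1 was lost without Scrambled replicate 1 (1.41, adjusted p = 0.0674) or 3 (1.45, 0.0580) and without shYAP replicate 1 (1.43, 0.0628), 2 (0.0549) or 3 (0.0532). Elovl1 was lost without any 1 Scrambled or shYAP library, with adjusted p between 0.0570 and 0.107. The Hacd2 call was lost without Scrambled replicate 2 (-0.66, adjusted p = 0.0913). Agpat2, which rose in both experiments, differed by 0.09 (95% confidence interval -0.39 to 0.57). Degs1 itself, no member, was lower in the clones and higher in shYAP, and differed by -3.33 (adjusted p = 2.32e-06).

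Between the control lines, Scrambled and shControl, edgeR called none of the 30 members, where 2.95% of all genes were called, 1.76% higher in Scrambled and 1.19% lower. DESeq2 called none either, where it called 4.21% of all genes. In edgeR 4 members had an unadjusted p under 0.05, which was not counted over all genes. All 30 members overlapped between these lines, but overlap was not counted over all genes, so this is no result about the members. With shControl replicates 8 to 10 alone, 3 were called higher in Scrambled, where 4.12% of all genes were called in either direction. Line and experiment cannot be told apart in this comparison.

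Of 65 further genes of the pathway (other enzymes, fatty acid uptake, lipid droplets and lipolysis, and regulators), 44 were tested in the knockout experiment, and 6 were higher and 4 lower in both clones together. The share of all genes called there was 17.6%, 8.39% higher and 9.21% lower. Insig1, which holds SREBPs in the endoplasmic reticulum and is itself their target, was at 36.6, 44.4 and 40.2 CPM in Scrambled, 35.6 to 90.7 in clone1 and 64.2 to 89.6 in clone2. It rose by 0.62 ± 0.20 in both clones together (adjusted p = 0.0312), with 0.37 ± 0.21 in clone1 (0.282) and 0.87 ± 0.21 in clone2 (0.00229). Srebf2, the gene of SREBP-2, rose by 0.73 ± 0.13 in clone1 (adjusted p = 6.84e-05) and differed by 0.05 ± 0.12 in clone2 (0.799). Insig1 stood higher in clone2 than in clone1, by 0.50 ± 0.15 (adjusted p = 0.00596), and Srebf2 stood lower, by -0.69 ± 0.09 (2.01e-08). Of 12 regulators tested, 1 was higher and 5 were lower in clone2 than in clone1, where 49.1% of all genes were called. Within clone1, Insig1 was at 41.57 to 90.71 CPM in replicates 1 to 6 and 35.59 to 38.1 in replicates 7 to 9.

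Among the other enzymes, the acyl-CoA synthetase Acsbg1 rose in both clones together (1.18 ± 0.23, adjusted p = 0.000222). The acyltransferase Agpat4 fell by 1.67 ± 0.58 (0.0424), with -1.001 ± 0.646 in clone1 (0.351) and -2.33 ± 0.67 in clone2 (0.00624). The equal-weight mean can rest on 1 clone. The dehydratase Hacd4 had a mean of -1.44 ± 0.40 (0.00895), with -2.85 ± 0.48 in clone1 (5.48e-05) and -0.04 ± 0.43 in clone2 (0.957). Hacd4 was at 3.93 to 5.72 CPM in Scrambled, 0 to 1.69 in clone1 and 2.83 to 9.96 in clone2, so clone2 overlapped the control. For uptake, the fatty acid transport protein Slc27a4 rose by 0.90 ± 0.26 (adjusted p = 0.0114). Of the lipid droplet genes, Hilpda, an inhibitor of lipolysis, rose by 0.53 ± 0.12 (adjusted p = 0.00147), with 0.20 ± 0.12 in clone1 (0.322) and 0.85 ± 0.13 in clone2 (2.24e-06). Bscl2, the gene of seipin, fell by 0.63 ± 0.20 (0.0265), with -0.51 ± 0.22 in clone1 (0.132) and -0.74 ± 0.22 in clone2 (0.00797). Cidea, of a droplet fusion protein, had a mean of -0.99 ± 0.27 (0.0101), with -2.04 ± 0.31 in clone1 (2.57e-05) and 0.06 ± 0.30 in clone2 (0.905). Cideb, another CIDE family gene, was called higher (adjusted p = 0.000528) at 2.17 to 7.32 CPM in clone1 and 1.31 to 10.4 in clone2, and it was at 0 to 0.464 in Scrambled, too low for a usable fold change.

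In shYAP, 42 of the 65 were tested, and 5 were higher and 4 lower, where 11.4% of all genes were called, 5.47% higher and 5.9% lower. The higher genes were Acsbg1, Gpat4, Gk, Abhd5 and Srebf2, and the lower ones Insig1, Mogat2, Cidea and Pparg. All 9 are given because the counts are small, and Gpat4, Gk, Abhd5, Mogat2 and Pparg were named after their values were seen. Insig1 was at 25.4, 20.9 and 24.3 CPM in shYAP and 46.2 to 77.7 in shControl, and fell by 1.42 ± 0.20 (adjusted p = 9.35e-05) without overlap. Srebf2 rose by 0.59 ± 0.19 (adjusted p = 0.0467), while its paralog Srebf1 did not pass the threshold.

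Sums over markers of other cell types were low beside the epithelial sum, and some differed between groups. The sum over 5 adipocyte markers was 0.7 to 8.51 CPM over all libraries, with 3.32 to 4.42 in shYAP and 0.7 to 8.51 in shControl. The sum over 5 sebaceous markers, one of which is the Scd3 paralog, was 2.87 to 3.79 CPM in shYAP and 0.202 to 1.94 in shControl. The sum over 4 squamous markers was 14.1 to 24.4 CPM in shYAP and 2.95 to 18.0 in shControl, and 0.192 to 3.71 in clone2 against 8.20 to 9.96 in Scrambled. The sum over 4 immune markers, which came mostly from Cd68, was 11.4 to 14.8 CPM in shYAP and 14.5 to 40.9 in shControl. It was 31.004 to 38.2 CPM in Scrambled, 22.8 to 28.7 in clone1 and 17.5 to 31.5 in clone2. Cd68, a lysosomal gene of macrophages that other cells also express, fell by 0.996 ± 0.268 in shYAP (adjusted p = 0.0189) and by 0.49 ± 0.14 in both clones together (0.0123), with -0.44 ± 0.16 in clone1 (0.0551) and -0.55 ± 0.15 in clone2 (0.00547). The part of these markers in the members' differences was not tested.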

How the data were processed

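RNA from organoids was poly(A)-selected and made into directional libraries, per the labels' protocols. The submitters' processing notes name Salmon 1.3.0 and build mm10. What the authors deposited are expected counts per gene, and all of them were whole numbers. How transcripts were summed to genes and the annotation release are not given in the sources used here. The 1243 entries with a gene ID but no symbol, at most 0.0475% of a library's counts, were kept under their ID.

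Counts were filtered (filterByExpr, minimum count 10 and minimum total 15), scaled by TMM and tested with edgeR 4.0.16 (robust quasi-likelihood, two-sided, Benjamini-Hochberg, threshold 0.05) in R 4.3.3. The knockout groups shared a 21-library fit, the hairpin groups a 13-library fit, and comparisons across experiments a fit of all 34. Alternatives used median-ratio size factors, no filter, DESeq2 1.42.0, limma 3.58.1 (log2 CPM, prior count 2), a replicate block, other sets of libraries and each control or shYAP library left out. The scripts were tested on simulated data for both clones together and for shYAP. The other contrasts, DESeq2 and limma were not simulated.

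The members, gene lists, division into runs and some alternatives were chosen with earlier results of these data known. The runs were shControl replicates 1 to 4, 5 to 7 and 8 to 10, clone1 1 to 6 and 7 to 9, and clone2 1 to 2, 3 to 6 and 7 to 9. Scrambled and shYAP were 1 run each. The labels name no batches, and their library numbers break only after shControl replicate 4. Members were described by library where they passed in both clones with the same sign, differed between the clones with opposite signs of value, or were among the 3 largest rises and 3 largest falls in shYAP. The remaining members, among them Acly, Scd2, Me1, Hacd1, Fasn, Fads2 and Elovl1, fall outside that rule and were added after their values were seen. Other genes were limited to 4 per list by size in both clones. Exon lengths and positions are from GENCODE M21 (GRCm38).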

Additional observations from a re-analysis of the deposited data

Results flagged for a closer look

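In 5 of 90 groups of 4 to 10 libraries, 1 library stood apart by Dixon's 95% criterion, about the number that chance gives at 1 in 20. These were Mid1ip1 in shControl replicate 2 (37.44 CPM), Hacd1 in clone2 replicate 6 (28.24 CPM, the only low one), Fads2 in clone1 replicate 9 (13.59 CPM), Acsl3 in clone1 replicate 2 (74.19 CPM), which is also the shallowest library, and Agpat2 in clone1 replicate 3 (54.41 CPM). 

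For 7 members the knockout effect differed from the shYAP effect by the test of that difference in edgeR. The difference was 3.39 for Acss2, 1.48 for Me1, -0.49 for Elovl1, -0.88 for Hacd2, 1.70 for Scd1, 0.71 for Scd2 and 2.23 for Lpin1, all on the log2 scale as knockout minus shYAP. The experiments have separate control lines, and these lines cannot be told apart from the experiments.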

How the results depend on the processing

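Of 53 calls on single members, 19 held in every alternative run for them. No called value changed sign. Of 2011 alternative values for results that were not called, 142 changed sign without passing the threshold. Shares of all genes in this section count both directions, so a count of members in 1 direction cannot be set directly against them. With shControl in place of Scrambled, 2 members were higher in both clones together and Hacd3, Fads2 and Acsl3 were lower, where 22.1% of all genes were called. With the run as a random block in limma, 1 member was lower in both clones, and 0 were higher and 1 lower in clone1. In clone2 1 was lower, and in shYAP 0 were higher and 3 lower. Of all genes, that block called 7.89% in both clones together, 3.96% in clone1, 19.7% in clone2 and 2.69% in shYAP. The calls on members lost with that block, at adjusted p from 0.0614 to 0.273, were Fads1 and Hacd1 in both clones together, Acss2, Fads1, Fads3, Acsl4, Acsl5 and Agpat2 in clone1, Elovl5, Fads1, Fads2 and Fads3 in clone2, Fasn and Gpam between the clones, and Acly, Hacd2, Scd2, Acsl4 and Agpat2 in shYAP. In clone2, 3 were lower with median-ratio size factors, 2 without the filter and 3 in limma without a block. There, 2 were lower in 1 fit of all groups and 3 with only the compared groups. In that order, these settings called 33%, 16.9%, 30%, 28.6% and 34.7% of all genes in clone2. Without the filter, 1 member was lower for the knockout effect minus the shYAP effect, where 7.7% of all genes were called. With shControl replicates 8 to 10 alone, 10 were lower in shYAP and Hacd1, Hacd2 and Agpat2 were higher, where 21.9% of all genes were called. With the same controls, 3 were higher in Scrambled than in shControl, where 4.12% of all genes were called. Each Scrambled and shYAP library, and clone1 replicate 2, was also left out, 1 at a time. This gave 3 to 5 members higher and 1 to 2 lower in both clones, and 0 to 4 higher and 1 to 3 lower in clone1. Clone2 had 6 to 7 higher and 2 to 5 lower, and shYAP 0 to 1 higher and 2 to 3 lower. The difference of effects had 4 to 5 higher and 0 to 2 lower. Calls over all genes moved too. Without 1 Scrambled library they were 10.2% to 11.6% in both clones, 6.59% to 8.63% in clone1 and 24.4% to 25.1% in clone2. Without 1 shYAP library they were 3.56% to 4.46% in shYAP. Replicate numbers are shared between groups, but same-numbered libraries did not deviate together: their correlations ran from -0.136 to 0.22, with means of -0.033 to 0.062. The numbers were not taken as pairs, and with a replicate block 3 members were lower in clone2, where 25.7% of all genes were called. With that block the members' median in shYAP was -0.25, beside -0.0023 for all genes. Without clone1 replicate 2, the shallowest library, Scd1 was called higher in both clones (0.33, adjusted p = 0.0412). In the main fits Dgat1 and Dgat2 had wide intervals and were called in no comparison, and the part of depth in this was not tested. Without clone1 replicate 2, Dgat1 was called lower in clone2 than in clone1 (-0.66, adjusted p = 0.0236). Against shControl, Dgat2 was called higher in clone2 (0.65, adjusted p = 0.0163).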
